A study of Mus musculus with 6 samples.

Results

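Endotoxin (lipopolysaccharide, LPS) is the outer membrane glycolipid of Gram-negative bacteria, and the liver is the first organ that gut-derived endotoxin reaches through the portal vein. Lbp, a plasma protein made by hepatocytes, takes LPS from the membrane and passes it to Cd14, which hands it to the receptor Tlr4 with its partner Ly96 (MD-2). The signal then runs through the adaptors Myd88, shared by most Toll-like receptors, and Ticam1 (TRIF), used by Tlr4 and Tlr3. Tlr2 senses bacterial lipoproteins and Tlr5 senses flagellin. These 8 genes were taken from the 25184 genes of the count table by their symbols, and all 8 were among the 15105 genes with a mean normalised count above 5 that were tested. They were listed with earlier results of these data known: Lbp was chosen by its adjusted p in the genotype contrast. The genotype differences of the 8 genes are therefore a description, without a test, and the extraction day and the levels are the comparisons that the choice did not use.

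Primary hepatocytes, kept overnight in culture, were sequenced as strand-specific, paired-end mRNA libraries from 3 Sucnr1 fl/fl mice and 3 Hep-Sucnr1 KO mice, all chow-fed. Sucnr1 encodes the succinate receptor. Both groups carry floxed Sucnr1 alleles. The Hep-Sucnr1 KO mice carry in addition a Cre recombinase under the albumin promoter, which the authors describe as hepatocyte-specific. The controls carry no Cre. Age and sex of these mice are not given in the sources used here. Libraries keep the numbers of their labels, Sucnr1 fl/fl 1 to 3 and Hep-Sucnr1 KO 3 to 5. Sucnr1 fl/fl 1 and Hep-Sucnr1 KO 3 were extracted on day 1 and the other 4 libraries on day 2, so that day 1 rests on 1 library of each genotype. The index numbers in the library names formed 2 runs, one with Sucnr1 fl/fl 1 and 2 and one with the remaining 4 libraries, and this split is partly the same as the genotype split.

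Library totals ranged from 30504248 to 38770694 counts. Sucnr1 itself had 258, 118 and 103 counts in the Sucnr1 fl/fl libraries and 84, 28 and 5 in the Hep-Sucnr1 KO libraries 3, 4 and 5, or 3.40 to 6.71 against 0.152 to 2.66 CPM (counts scaled to the library total, with TMM factors). Alb, the hepatocyte marker with the highest level, was at 37100 to 68900 CPM in all libraries. Markers of Kupffer cells, the resident liver macrophages, were present at low levels that differed between libraries: the summed level of the 10 listed markers was 42.1, 37.9 and 139 CPM in Sucnr1 fl/fl 1, 2 and 3, and 8.33, 121 and 85.3 CPM in Hep-Sucnr1 KO 3, 4 and 5. The 6 listed neutrophil markers summed to 0.936 to 5.77 CPM in the Sucnr1 fl/fl libraries and to 0.823 to 5.91 CPM in the Hep-Sucnr1 KO libraries. In such bulk RNA, fewer cells of a type and less RNA per cell cannot be told apart.

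Lbp (chromosome 2, 158306493-158332852, plus strand; GRCm38, as all gene positions here) was higher in the Hep-Sucnr1 KO hepatocytes. Its level was 87.3, 94.0 and 116 CPM in Sucnr1 fl/fl 1, 2 and 3, and 137, 162 and 173 CPM in Hep-Sucnr1 KO 3, 4 and 5. The lowest Hep-Sucnr1 KO library was above the highest Sucnr1 fl/fl library. The means were 99.0 ± 14.9 and 157 ± 18.6 CPM (SD, n = 3), a ratio of 1.59. The ratio was 1.56 between the 2 libraries of day 1 and 1.6 between the means of day 2. With the extraction day as covariate, the log2 fold change was 0.67 (SE 0.12) in edgeR and 0.65 (SE 0.14) in DESeq2. The adjusted p that selected the gene was 0.0184 in DESeq2, where 7 of 11005 genes with an adjusted p were below 0.05 (0.0636%). With edgeR's quasi-likelihood test the adjusted p of Lbp was 0.998 and 0 of 15105 genes passed (0.0%), with 563 genes at an unadjusted p under 0.05. Lbp alone of the 8 genes lay inside the DESeq2 threshold; Cd14 was the next, at 0.218, and Tlr4 and Tlr5 got no adjusted p from DESeq2. Adding the index run of the libraries to the edgeR model gave a log2 fold change of 0.51 (SE 0.18) for Lbp. Within the run that holds both genotypes, the single Sucnr1 fl/fl library (116 CPM) was below the 3 Hep-Sucnr1 KO libraries.

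**Figure D1:**
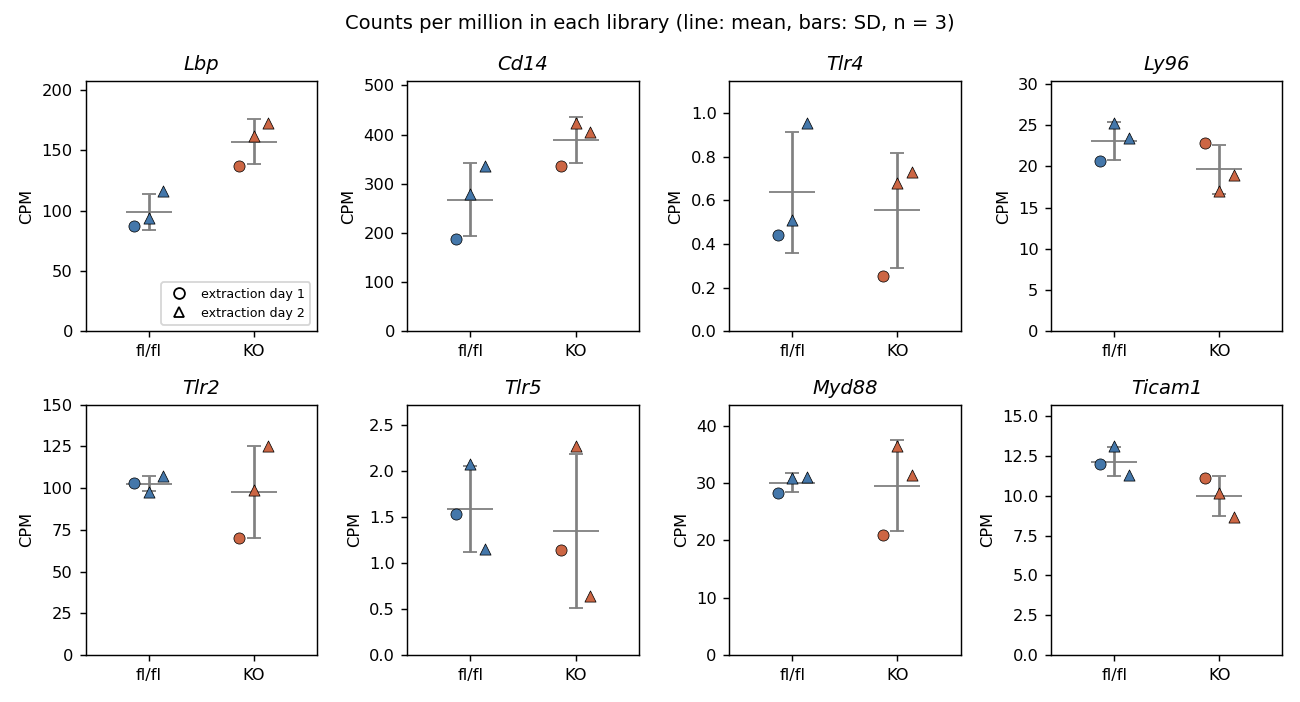
Level of the 8 genes in CPM (linear axes from 0) in each library, Sucnr1 fl/fl in blue and Hep-Sucnr1 KO in orange, with circles for extraction day 1 and triangles for day 2; the wide line is the mean and the bars the SD (n = 3). Lbp and Cd14 show no overlap between the genotypes, with every Hep-Sucnr1 KO library above, and Ticam1 has every Hep-Sucnr1 KO library below.

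Cd14 (chromosome 18, 36725067-36726798, minus strand), the membrane-bound or soluble co-receptor that receives LPS from Lbp, was the most abundant of the 8 genes. It was at 188, 280 and 335 CPM in Sucnr1 fl/fl 1, 2 and 3, and at 337, 424 and 406 CPM in Hep-Sucnr1 KO 3, 4 and 5. The groups did not overlap, but the highest Sucnr1 fl/fl library and the lowest Hep-Sucnr1 KO library were almost level. The means were 268 ± 74.4 and 389 ± 45.9 CPM (SD, n = 3), a ratio of 1.45, with 1.79 on day 1 and 1.35 on day 2. The log2 fold change was 0.57 (SE 0.15) in edgeR. It was 0.35 (SE 0.21) with the index run added, a drop by more than 1.5 times.

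The 2 partners in the receptor itself did not share this direction. Tlr4 (chromosome 4, 66827584-66930284, plus strand), the signalling chain, had only 17, 17 and 29 counts in Sucnr1 fl/fl 1, 2 and 3 and 8, 23 and 24 counts in Hep-Sucnr1 KO 3, 4 and 5, or 0.253 to 0.956 CPM. Its genotypes overlapped, with means of 0.637 ± 0.279 and 0.554 ± 0.261 CPM (SD, n = 3) and a log2 fold change of -0.26 (SE 0.39), which lay between -0.56 and -0.04 with 1 library left out. Ly96 (chromosome 1, 16688051-16709611, plus strand), the secreted protein that binds the lipid part of LPS on Tlr4, was at 20.7, 25.3 and 23.4 CPM in Sucnr1 fl/fl 1, 2 and 3 and at 22.9, 17.0 and 19.0 CPM in Hep-Sucnr1 KO 3, 4 and 5. The day 1 libraries had the order opposite to those of day 2, with ratios of 1.11 and 0.739, and the log2 fold change over both days was -0.24 (SE 0.15).

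Among the other receptors, Tlr2 (chromosome 3, 83836272-83841767, minus strand) was at 103, 97.8 and 107 CPM in Sucnr1 fl/fl 1, 2 and 3. It was at 69.9, 98.8 and 125 CPM in Hep-Sucnr1 KO 3, 4 and 5, a wider spread with the lowest and the highest library of all 6. Its log2 fold change was -0.10 (SE 0.18) and turned to 0.13 without Sucnr1 fl/fl 1 and 0.12 without Hep-Sucnr1 KO 3. Tlr5 (chromosome 1, 182954788-182976044, plus strand) was low, at 1.15 to 2.08 CPM in the Sucnr1 fl/fl libraries and 0.638 to 2.27 CPM in the Hep-Sucnr1 KO libraries. Its log2 fold change of -0.24 had an SE of 0.49, and its sign turned without Hep-Sucnr1 KO 5 (0.12) and with the index run added (0.35).

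The adaptors stood at moderate levels. Myd88 (chromosome 9, 119335934-119341411, minus strand), which brings the IRAK kinases to the receptor, was at 28.2, 30.9 and 31.1 CPM in Sucnr1 fl/fl 1, 2 and 3 and at 20.9, 36.4 and 31.4 CPM in Hep-Sucnr1 KO 3, 4 and 5. The groups overlapped, and the log2 fold change was -0.06 (SE 0.15), with 0.13 without Sucnr1 fl/fl 1 and 0.12 without Hep-Sucnr1 KO 3. The gene shares 290 exon bases with Acaa1a on the opposite strand, and the authors' counting used strand. Ticam1 (chromosome 17, 56269319-56276786, minus strand), which leads to type I interferon genes, was at 12.0, 13.1 and 11.3 CPM in Sucnr1 fl/fl 1, 2 and 3 and at 11.1, 10.2 and 8.65 CPM in Hep-Sucnr1 KO 3, 4 and 5. All Hep-Sucnr1 KO libraries were below all Sucnr1 fl/fl libraries, with a gap between the nearest 2 of less than 1 CPM, and the log2 fold change was -0.29 (SE 0.14).

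Of the 8 genes, 2 (Lbp and Cd14) had every Hep-Sucnr1 KO library above every Sucnr1 fl/fl library, an order that 6.54% of the tested genes had, and 1 (Ticam1) had the opposite order, which 4.04% had. Since the list was drawn up with this contrast in view, nothing is read from these counts. The median log2 fold change of all tested genes was 0.00. The difference of the genotype effect between the extraction days was fitted as an interaction with edgeR; 0 of 8 genes and 0 of 15105 genes (0.0%) had an adjusted p under 0.05, 557 genes had an unadjusted p under 0.05, and DESeq2 called 4 genes, none of the 8. The smallest unadjusted p of the 8 genes was 0.0623, for Ly96.

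**Figure D2:**
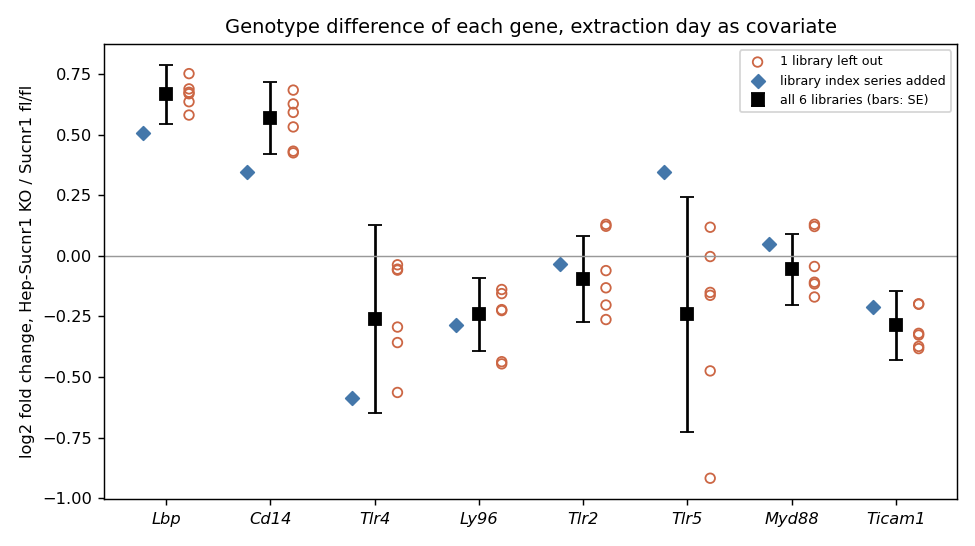
Log2 fold change of Hep-Sucnr1 KO over Sucnr1 fl/fl for the 8 genes in edgeR with extraction day as covariate: black squares with bars are the estimates with their SE from 6 libraries, open circles the 6 fits that each leave out 1 library, and blue diamonds the fit with the index run added. Lbp stays between 0.51 and 0.75 and Cd14 between 0.35 and 0.68, whereas Tlr2, Tlr5 and Myd88 have values on both sides of 0.

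The promoter windows of RefSeq (GRCm38.p6) held 4 of the 8 genes: Tlr2, Tlr5, Myd88 and Ticam1. The 250 bases before the start were searched on both strands for the NF-kB motif, for the STAT motif TTCNNNGAA, the AP-1 motif TGANTCA and the C/EBP motif TTNNGCAA, factors that act on inflammatory genes. The NF-kB motif was found in 7.25% of the 32851 windows of the table, the STAT motif in 7.02%, the AP-1 motif in 6.75% and the C/EBP motif in 9.56%. Of the 4 genes, Tlr2 held an NF-kB motif, Myd88 a STAT motif, and Tlr5 and Ticam1 none of the 4 motifs. The sequences of both adaptors are shown because Myd88 had every library of day 2 above those of day 1 and Ticam1 did not, together with the NF-kB stretch of Tlr2; all are 5′ to 3′ on the minus strand, with motif matches in capitals. The Ticam1 stretch ends at the base before the annotated gene, and the last bases of the Tlr2 stretch are exonic. The Myd88 stretch lies before the first exon of 1 annotated transcript and in the first intron of another, which starts further upstream, at 119341411. Myd88 is chr9:119340042-119340268, Ticam1 is chr17:56276787-56277017 and Tlr2 is chr3:83841762-83841791.
Myd88: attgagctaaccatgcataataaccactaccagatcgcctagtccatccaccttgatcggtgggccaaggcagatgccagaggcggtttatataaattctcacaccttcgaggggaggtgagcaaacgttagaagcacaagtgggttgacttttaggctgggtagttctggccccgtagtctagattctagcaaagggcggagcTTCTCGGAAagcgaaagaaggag
Ticam1: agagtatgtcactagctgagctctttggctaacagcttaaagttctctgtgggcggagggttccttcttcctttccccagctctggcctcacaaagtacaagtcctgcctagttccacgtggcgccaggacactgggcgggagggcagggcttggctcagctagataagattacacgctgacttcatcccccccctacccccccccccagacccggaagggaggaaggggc
Tlr2: taggacacctGGGGAATTCCCacacggagc
A match describes the letters and shows no binding.

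Per length (RPKM, here CPM per kilobase of merged exons), the 8 genes spanned more than 3 orders of magnitude, and the receptor chain that signals was the lowest. Cd14 was highest, at 190 ± 49.9 RPKM (SD over 6 libraries), above 98.3% of the tested genes. Tlr2 followed at 33.2 ± 5.93, Lbp at 26.5 ± 7.30 and Ly96 at 20.9 ± 3.01 RPKM. The ranges of Tlr2 and Lbp overlapped, as did those of Lbp and Ly96, and in each pair the order held in 4 of 6 libraries, so these neighbours did not differ beyond their spread. Myd88 stood at 11.6 ± 1.99 and Ticam1 at 3.69 ± 0.508 RPKM, each separate from its neighbours in every library. Tlr5, at 0.307 ± 0.129, and Tlr4, at 0.107 ± 0.0443 RPKM, were above only 19.4% and 8.31% of the tested genes. Their ranges overlapped, although Tlr5 was above Tlr4 in all 6 libraries. With the longest transcript as length, Lbp was at 50.7 and Ly96 at 32.1 RPKM, so that Lbp came before Tlr2 (33.2 RPKM); the other 6 places were kept.

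Within each library, the co-receptor outnumbered the receptor by a wide margin. Cd14 was 1360, 1760 and 1120 times the level per length of Tlr4 in Sucnr1 fl/fl 1, 2 and 3, and 4270, 2000 and 1790 times in Hep-Sucnr1 KO 3, 4 and 5. The highest ratio, in Hep-Sucnr1 KO 3, rests on 8 Tlr4 counts, against 17 to 29 in the other libraries. That library also had the lowest Kupffer cell markers, and their part in the ratio was not tested. The ratio of Cd14 to Ly96 was 5.37, 6.52 and 8.44 in Sucnr1 fl/fl and 8.68, 14.7 and 12.6 in Hep-Sucnr1 KO libraries in the same order. The nearest values, 8.44 and 8.68, were almost level. Both genes were listed with the genotype contrast known, so nothing is read from this order. The ratio of Lbp to Cd14 was 0.120 to 0.166 in Sucnr1 fl/fl and 0.137 to 0.153 in Hep-Sucnr1 KO libraries, the latter range lying inside the former.

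The extraction day was tested for each of the 8 genes in the same edgeR model, and 0 of 8 passed at an adjusted p of 0.05. In all 15105 genes 0 passed (0.0%), with 1132 at an unadjusted p under 0.05, whereas DESeq2 called 225 of 13933 genes (1.61%), none of them among the 8. Cd14 had the lowest p: its mean was 263 CPM on day 1 and 361 CPM on day 2 (log2 fold change 0.50, SE 0.16, adjusted p = 0.548 in edgeR and 0.148 in DESeq2). Without Sucnr1 fl/fl 1 the log2 fold change of Cd14 was 0.30. Myd88 was at 24.5 and 32.5 CPM (log2 fold change 0.41, SE 0.16, edgeR adjusted p = 0.617), and Tlr4 at 0.348 and 0.719 CPM (log2 fold change 1.05, SE 0.43, edgeR adjusted p = 0.656). These 3 genes had an unadjusted p under 0.05 with day 2 higher, as did 5.16% of all tested genes. In Tlr4 and Myd88 the 4 libraries of day 2 were above both libraries of day 1, an order found in 8.51% of tested genes, and none of the 8 genes had the reverse order, found in 6.29%. For Tlr4 this order rests on equal counts in the nearest pair. Sucnr1 fl/fl 1 of day 1 and Sucnr1 fl/fl 2 of day 2 had 17 counts each (0.442 and 0.511 CPM). Without Hep-Sucnr1 KO 3 the log2 fold change was 0.68 for Tlr4 and 0.10 for Myd88, and without Sucnr1 fl/fl 1 it was 1.46 and 0.70. Lbp had a log2 fold change of 0.28 (SE 0.13, edgeR adjusted p = 0.734) and Tlr2 of 0.32 (SE 0.19, edgeR adjusted p = 0.838). Ly96, Tlr5 and Ticam1 had -0.06, 0.21 and -0.11, each smaller than its SE.

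Kupffer cells are known to carry Tlr4 and Cd14, and their markers moved with the extraction day in these libraries. All 10 markers had a positive log2 fold change for day 2, although Sucnr1 fl/fl 2, of day 2, was near Sucnr1 fl/fl 1. The median log2 fold change was 2.07 against 0.02 for all tested genes. With day 2 higher, 7 of the 10 had an unadjusted p under 0.05, as did 5.16% of all tested genes. None passed the edgeR adjustment, and DESeq2 called 1 of the 10, against 1.61% of all genes with an adjusted p. Clec4f, the marker with the highest level, was at 7.91, 8.09 and 25.2 CPM in Sucnr1 fl/fl 1, 2 and 3 and at 1.90, 24.8 and 15.7 CPM in Hep-Sucnr1 KO 3, 4 and 5. Tlr4 was also lowest in Hep-Sucnr1 KO 3 and highest in Sucnr1 fl/fl 3. In Hep-Sucnr1 KO 3, where the summed markers were lowest, Lbp was at 137 CPM and Cd14 at 337 CPM. The highest Sucnr1 fl/fl values were 116 CPM for Lbp and 335 CPM for Cd14, the latter almost level with Hep-Sucnr1 KO 3. Between the genotypes all 10 Kupffer cell markers had a negative fitted log2 fold change (median -0.40), and none had an unadjusted p under 0.05. The CPM values did not divide by genotype. The summed markers ranged over 37.9 to 139 CPM in the Sucnr1 fl/fl and 8.33 to 121 CPM in the Hep-Sucnr1 KO libraries. Clec4f had means of 13.7 ± 9.93 and 14.1 ± 11.5 CPM (SD, n = 3), against a fitted log2 fold change of -0.37. The 5 monocyte markers summed to 7.67 to 32.2 CPM in the Sucnr1 fl/fl and 2.18 to 25.5 CPM in the Hep-Sucnr1 KO libraries, led by Lyz2 (2.06 to 30.4 CPM). Lyz2 had a negative genotype log2 fold change (-0.63). The other 4, all at low levels, had a positive one, and the median of the 5 was 2.11. An unadjusted p under 0.05 in edgeR was found for 2 of the 5, as for 563 of the 15105 tested genes, and none passed the adjustment. Neutrophil markers were led by Csf3r (0.127 to 3.66 CPM). Sinusoidal endothelial markers were led by Pecam1 (7.0 to 18.8 CPM), stellate cell markers by Dcn (1.98 to 10.4 CPM), cholangiocyte markers by Spp1 (266 to 526 CPM) and lymphocyte markers by Cd79a (0.271 to 2.11 CPM). The other cholangiocyte markers, named after their values were seen, were uneven. Sox9 was at 83.2 to 122 CPM, but Epcam at 0.62 to 2.61, Krt19 at 0.118 to 0.89 and Krt7 at 0 to 0.33 CPM. The part of these cells in the levels of the 8 genes, Lbp and Cd14 included, was not tested.

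**Figure D3:**
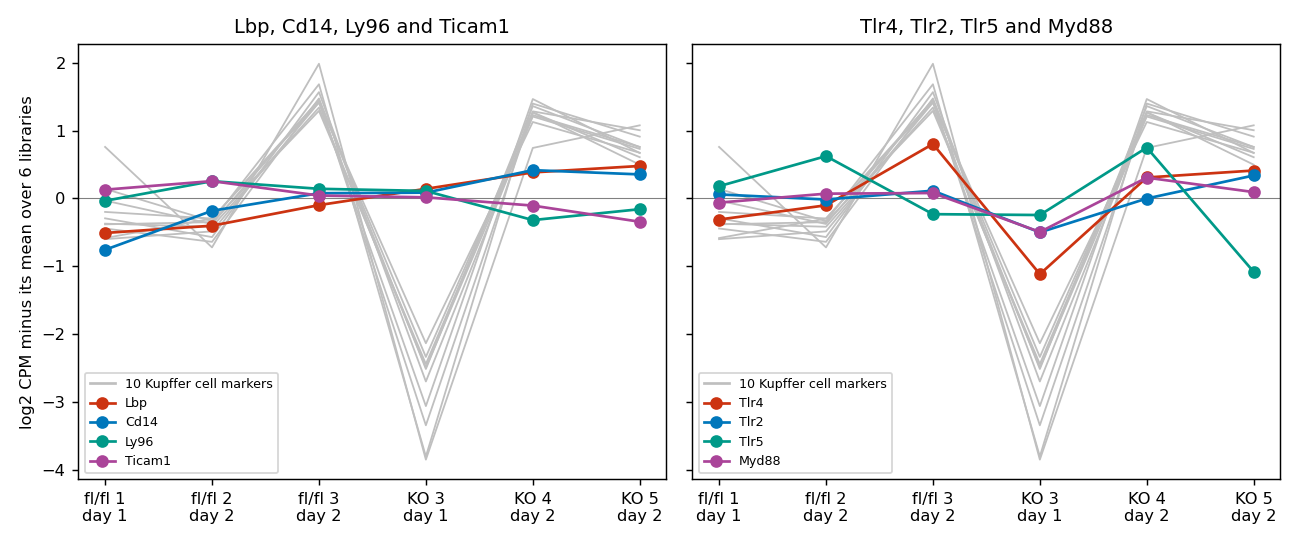
Log2 CPM of each gene minus its mean over the 6 libraries (vertical axis) in every library (horizontal axis, libraries in label order; lines join the values of 1 gene), with 10 Kupffer cell markers in grey in both panels. The markers dip in Hep-Sucnr1 KO 3 and peak in Sucnr1 fl/fl 3 and Hep-Sucnr1 KO 4. Tlr4 has its lowest value in Hep-Sucnr1 KO 3, and Lbp and Cd14 have theirs in Sucnr1 fl/fl 1.

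The rest of the Toll-like receptor pathway was read from a list of 68 genes, of which 65 were tested. For genotype, 26 had a positive and 39 a negative log2 fold change, between -0.62 and 0.42 with a median of -0.02, and 0 passed the adjustment in edgeR or DESeq2. None of the 65 had an unadjusted p under 0.05. The 10 tested genes of other Toll-like receptors and relatives had a median of -0.11, the 6 chaperones and trafficking genes 0.09, the 17 kinases and ubiquitin ligases -0.03, the 7 transcription factors -0.15, the 10 inhibitors 0.17, the 3 other adaptors -0.17, the 6 genes of LPS binding, transfer and removal -0.16 and the 6 genes of cytosolic LPS sensing 0.04. Every one of these 65 genes lay below Cd14 and Lbp in this contrast. Lbp was chosen by its difference in this contrast, so its place above them is a description and no result.

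The most abundant gene of each role showed overlapping genotypes, with 1 exception. Hsp90b1, the chaperone that folds Toll-like receptors, ranged over 347 to 507 CPM in the Sucnr1 fl/fl libraries and over 431 to 666 CPM in the Hep-Sucnr1 KO libraries. Irak2, a kinase next to Myd88, was at 127 to 150 and 124 to 146 CPM, and Rela, the NF-kB subunit p65, at 328 to 401 and 272 to 397 CPM. Nfkbia, the inhibitor that holds NF-kB in the cytoplasm, was at 191 to 283 and 191 to 365 CPM. Hpx, the haem carrier hemopexin, listed here among LPS-binding plasma proteins, was at 6280 to 7350 and 7140 to 10500 CPM. The exception was Pik3ap1 (BCAP), an adaptor that links Toll-like receptors to phosphoinositide kinase. It was at 318 to 328 CPM in the Sucnr1 fl/fl libraries and 269 to 291 CPM in the Hep-Sucnr1 KO libraries (log2 fold change -0.19, SE 0.12). Of the 65 pathway genes, 2 were lower in the knockout without overlap and 2 were higher. The matching shares of all tested genes were 4.04% and 6.54%, so nothing is read from this exception.

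For extraction day, 51 of the 65 genes were higher and 14 lower on day 2, with a median log2 fold change of 0.15 against 0.02 for all tested genes. None passed in edgeR. Of the 65, 14 higher and 1 lower had an unadjusted p under 0.05, against 780 higher and 352 lower of all 15105 tested genes. DESeq2 called 4, all higher, against 1.61% of all genes with an adjusted p. These 4, named after their values were seen, were receptors, a chaperone and a transcription factor of nucleic acid sensing. Tlr3, the receptor for double-stranded RNA and the most abundant one in its role, was at 13.8, 20.2 and 28.6 CPM in Sucnr1 fl/fl 1, 2 and 3 and at 8.64, 23.4 and 26.2 CPM in Hep-Sucnr1 KO 3, 4 and 5 (edgeR log2 fold change 1.15, SE 0.22, adjusted p = 0.387; DESeq2 adjusted p = 0.00151). Tlr7, a receptor for single-stranded RNA, was at 0.127 to 0.598 CPM on day 1 and 1.02 to 2.51 CPM on day 2 (edgeR adjusted p = 0.505, DESeq2 0.0190). Irf7, which switches on interferon genes, was at 26.3 to 42.2 CPM on day 1 and 55.3 to 91.7 CPM on day 2 (edgeR adjusted p = 0.475, DESeq2 0.00607). Unc93b1, which carries these receptors to endosomes, was at 20.9 to 23.6 and 29.0 to 41.6 CPM (edgeR adjusted p = 0.454, DESeq2 0.0292). The Kupffer cell markers were higher on day 2 as well, and their part in these 4 genes was not tested.

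**Figure D4:**
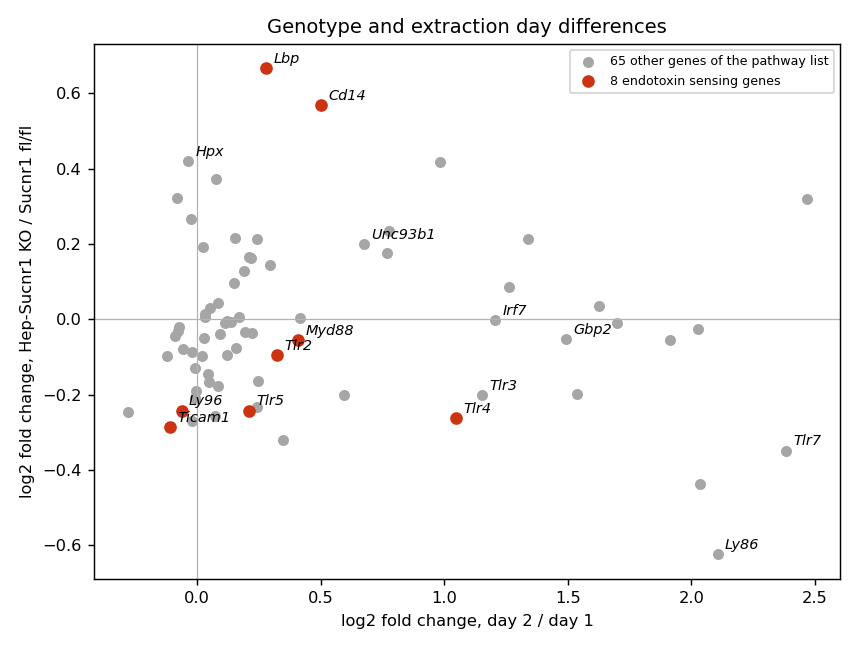
Log2 fold change of extraction day 2 over day 1 (horizontal axis) against that of Hep-Sucnr1 KO over Sucnr1 fl/fl (vertical axis) in edgeR, with 8 endotoxin sensing genes in red and 65 other tested genes of the pathway list in grey. Lbp, which was chosen by its genotype difference, and Cd14 lie highest, at 0.67 and 0.57 on the genotype axis. Tlr4 lies to the right, at 1.05 on the day axis, among receptors such as Tlr3.

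Lbp is itself an acute phase protein, one of the plasma proteins that the liver makes in larger amounts in inflammation. All 20 genes of an acute phase list had a log2 fold change above 0 between the genotypes, with a median of 0.41. In 8 of 20, every Hep-Sucnr1 KO library was above every Sucnr1 fl/fl library, an order that 6.54% of the tested genes had. The opposite order, which 4.04% had, was found in 0 of 20. This list was also chosen with earlier results of these data known, so nothing is read from these counts. The largest log2 fold changes were those of Saa3 (0.82, SE 0.36), Orm3 (0.78, SE 0.18) and Saa2 (0.72, SE 0.18), 3 genes of secreted acute phase proteins. The genotypes overlapped in Saa3, and Hep-Sucnr1 KO 4 stood apart. Its levels were 36.7, 69.6 and 93.2 CPM in Sucnr1 fl/fl 1, 2 and 3 and 61.0, 218 and 76.8 CPM in Hep-Sucnr1 KO 3, 4 and 5. Saa2 was at 1230, 1020 and 1360 CPM in Sucnr1 fl/fl 1, 2 and 3 and at 2440, 1800 and 1760 CPM in Hep-Sucnr1 KO 3, 4 and 5. The smallest were those of Il1rn (0.00, SE 0.29), Crp (0.09, SE 0.18) and Fga (0.13, SE 0.18). None of the 20 passed the adjustment in edgeR or DESeq2, where the lowest adjusted p was 0.0626. Lbp, at 0.67, would lie between Saa2 and Saa1 (0.65) in this list. Saa1 and Saa2 are near-identical copies, and the Orm genes form a separate family of similar genes. Their counts are uncertain to the extent that reads could be split within each family.

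Of 7066 genes with a mean of at least 10 CPM, 159 had a Pearson r of at least 0.9 with Lbp in log2 CPM over the 6 libraries. Among the most alike were the proteasome subunits Psmb6 (r = 0.992) and Psma1 (r = 0.980), and Rpl17-ps5 (r = 0.981) and Gm12481 (r = 0.981). Their genotype differences were smaller than that of Lbp: the Sucnr1 fl/fl and Hep-Sucnr1 KO means of Psmb6 were 62.5 ± 2.36 and 70.7 ± 3.14 CPM (SD, n = 3), and those of Psma1 were 58.3 ± 4.26 and 71.3 ± 3.94 CPM. Rpl17-ps5 is named as a ribosomal protein pseudogene and may share reads with its parent gene. Among the other 7 genes, r with Lbp was 0.91 for Cd14 and -0.90 for Ticam1, and between -0.65 and 0.21 for the remaining 5. With 6 libraries that share genotype, extraction day and index run, these values describe the pattern and are not tested.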

How the data were processed

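Per the labels and the study's methods, the authors trimmed reads with Trim Galore 0.6.7, aligned them to GRCm38 with STAR 2.7.10a (versions from the submitters' processing notes) and counted read pairs per Ensembl gene with featureCounts, using strand; the deposited table holds raw counts. The design text gives 3 mice per genotype. Symbols, positions and lengths came from GENCODE M21, an earlier release than the authors' annotation, which matched 25130 of 25184 identifiers. The count columns were fitted with edgeR 4.0.16 (quasi-likelihood test, R 4.3.3) with TMM factors (0.9536 to 1.09), extraction day and genotype as terms, genes with a mean DESeq2-normalised count above 5, and Benjamini-Hochberg adjustment at 0.05; DESeq2 1.42.0 was an alternative. SE is the log2 fold change divided by the root of F. The model was tested on simulated data. CPM use TMM library sizes, and log2 CPM a prior count of 2.

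The 8 genes, the pathway, acute phase and marker lists and the tests were chosen with earlier results of these data known. Besides the 8 genes and Sucnr1, the text names the gene with the highest level per length in each pathway role, pathway genes past the adjustment, the 5 genes most like Lbp (1 is not reported here), the 3 highest and 3 lowest acute phase genes by genotype fold change and the leading marker of each cell type; others are named as chosen after their values were seen, as are Saa1, the Orm genes and Acaa1a. Library totals were similar, and counting error adds to the spread between mice in genes with few counts, such as Tlr4 and Tlr5.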

Additional observations from a re-analysis of the deposited data

How the results depend on the processing

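The number of genes called differed most between the tests. DESeq2 called 7 genes for genotype, 225 for extraction day and 4 for the interaction, and 4 pathway genes for extraction day, against 0 in each case with edgeR. Without a filter on low counts, edgeR called 122 genes for extraction day, 2 of them in the pathway list. Leaving out 1 library at a time gave 0 to 29 genes for extraction day, with 29 without Sucnr1 fl/fl 2. The cause was not tested. The pathway list had 0 genes called for genotype under all 15 alternatives.

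The log2 fold change of Lbp for genotype was positive under all 15 alternatives, from 0.51 with the index run added to 0.75, and between 0.58 and 0.75 with 1 library left out. Lbp was chosen by this contrast in the same libraries, so its sign had little room to turn, and these fits are no test of it. For extraction day, leaving out 1 library moved Ly96 between -0.35 and 0.20, Tlr2 between -0.043 and 0.68 and Tlr5 between -0.29 and 0.46. Ly96 was positive without Hep-Sucnr1 KO 3 (0.20) or 4 (0.02), Tlr2 was negative without Hep-Sucnr1 KO 3 (-0.043), and Tlr5 was negative without Sucnr1 fl/fl 2 (-0.022) or Hep-Sucnr1 KO 4 (-0.29). No edgeR or DESeq2 alternative called any of the 8 genes for extraction day. No paired analysis was possible because the groups share only the number 3, which marks no shared animal. With 3 mice per genotype, and 1 library of each genotype on day 1, small differences of the low genes Tlr4 and Tlr5 were not detectable at this depth.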

Other observations

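Endotoxin in the cytosol is sensed without Toll-like receptors, by Casp4 (the mouse caspase-11), with the guanylate-binding protein Gbp2, a GTPase that coats bacterial membranes, acting upstream. Gbp2 had the highest level per length of the 6 genes listed for this role, at 78.4 and 182 CPM in Sucnr1 fl/fl 2 and 3, between 33.5 and 187 CPM in the Hep-Sucnr1 KO libraries (33.5 in Hep-Sucnr1 KO 3, 187 and 185 in 4 and 5), and in Sucnr1 fl/fl 1 close to Sucnr1 fl/fl 2. Sucnr1 fl/fl 2, of day 2, lay with the day 1 libraries. The log2 fold change was 1.49 (SE 0.50) for extraction day, with an edgeR adjusted p of 0.549, and -0.05 (SE 0.44) for genotype. Casp4, named after its values were seen, was at 2.29, 2.14 and 5.51 CPM and at 1.39, 5.20 and 5.10 CPM in the same libraries. For extraction day the 6 genes had a median log2 fold change of 1.12. With day 2 higher, 3 of the 6 had an unadjusted p under 0.05, as did 5.16% of all tested genes. None of the 6 passed the adjustment in edgeR or DESeq2. Gbp2 and Casp4 were higher in Sucnr1 fl/fl 3 and Hep-Sucnr1 KO 4 and 5 than in the rest, a split that the summed Kupffer cell markers also showed. The part of those cells was not tested.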
